A study of Caenorhabditis elegans with 6 samples.

Results

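The UDP-glucuronosyltransferase genes of Caenorhabditis elegans, named ugt, are described here across 3 strains with and without octopamine. The members are the genes with a symbol starting ugt- for which the platform annotation gives a probe set of a single gene. There were 64 of them among the 17118 named genes on the array, and the current gene table lists 67 ugt symbols. Where a gene had more than 1 probe set, as ugt-46, ugt-48 and ugt-50 did, it is represented by the brightest on average. Of the 64 genes, 44 passed the filter on low signal and were tested.

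RNA of whole adult animals was hybridised to 6 Affymetrix arrays of 1 colour, and every strain had 1 array with and 1 without octopamine. The strains were daf-16(mu86), the double mutant ser-3(ok2007);ser-6(tm2146), called the receptor mutant here, and wild-type N2, which is also the stated background of both mutants. Each was grown for 3 days and then kept for 2 days on plates with octopamine at 20 mg/mL or without it. The labels give the age as 5 days in the extraction protocol and as day 4 of adulthood elsewhere. DAF-16 is the FOXO transcription factor of the insulin pathway, and SER-3 and SER-6 are receptors for octopamine, the invertebrate counterpart of noradrenaline. The title of the series places octopamine, oxidative stress resistance and DAF-16 in one question.

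UDP-glucuronosyltransferases are membrane enzymes of the endoplasmic reticulum that join a sugar from a UDP-sugar donor to small lipophilic molecules. The sugar makes these easier to excrete, so the family is counted among the phase II enzymes of detoxification, after oxidation by cytochromes P450. Nematode genomes hold many more of these genes than mammalian genomes, glucose is a common donor sugar in worms, and for most worm members the substrate is not established. Intestine and hypodermis are the main sites of xenobiotic metabolism in this animal. Among the members described below, ugt-22 has been linked in worms to the response to the drug albendazole.

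Values are given on 2 scales. A signal is the deposited linear intensity of a probe set. A log2 ratio or change is computed after subtracting each array's median, and a value of 1 is a 2-fold difference. Signals of different probe sets are not comparable as levels, because each probe set has its own brightness. The arrays differed little in scale, with median signals of 24.56 to 25.96 apart from 23.77 in untreated N2. Each group has 1 array, so precision is limited by their number and a ratio of 2 arrays has no replicate check. The test is an additive limma model over all 6 arrays, with 3 pairs of arrays for octopamine and 2 for each mutant against N2. The words rose and fell are used for genes at an adjusted p under 0.05 in that model, adjusted over all 10251 genes tested. The labels give no repeat culture of any group, so these p-values do not measure the spread between repeat cultures. Their error is what the additive model leaves over, drawn by limma toward that of other genes of similar signal. It holds technical spread, differences between the single cultures and octopamine changes that differ between strains. These parts cannot be told apart with 1 array per group. A change that differs by strain thus widens its own error.

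A probe set of daf-16 had signals of 6.3 with and 7.3 without octopamine in the daf-16 mutant, and of 43.4 with and 47.7 without it in N2. The other daf-16 probe sets had ratios to N2 between -1.58 and -0.37. The ser-3 probe set was dim, with signals of 17.7 with and 18.2 without octopamine in the receptor mutant and of 25.7 with and 22.3 without it in N2. For ser-6 no single-gene probe set was assigned. Whether any of these probes fall within a deletion was not analysed here, so ser-3 and ser-6 do not check the receptor mutant's label.

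Octopamine was accompanied by lower signal of 8 ugt genes and higher signal of 3, over the 3 strains together. The genes that fell were ugt-63, ugt-43, ugt-6, ugt-12, ugt-46, ugt-20, ugt-44 and ugt-39. Those that rose were ugt-50, ugt-29 and ugt-1. The remaining 33 of the 44 tested members did not pass. The 8 that fell were 18.2% of the members tested, against 14.7% of all genes tested that fell. The 3 that rose were 6.82%, against 7.35% of all genes. Without the N2 arrays 1 of the 44 members rose and 7 of the 44 fell, against 3.14% and 7.11% of all genes. Without the receptor mutant's arrays 5 of the 44 rose and 11 of the 44 fell, against 8.67% and 17.2% of all genes. Without the daf-16 arrays 3 of the 44 rose and 9 of the 44 fell, against 580 and 1068 of 10251 genes. In each of these fits the share of members that fell was above that of all genes. The share that rose was below it without N2 and above it without either mutant. Of all octopamine calls, 33.2% were increases here, against 48.8% when no median was subtracted and 52.5% when arrays were quantile normalized. With all 6 arrays and each array's median subtracted, both shares of the members were near the background. The median change of the 44 members, -0.06, equalled that of all genes. When arrays were quantile normalized, 7 of the 44 members fell and 4 rose, against 879 and 972 of 10251 genes. The share of members that fell was then further above that of all genes. It was also further above when no median was subtracted, with 7 of the 44 falling. In whole animals, fewer cells of a type and less RNA per cell cannot be told apart.

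The largest decreases were those of ugt-63, ugt-43 and ugt-6. For ugt-63 the signal was 34.9 with and 110.9 without octopamine in daf-16, 38.5 with and 72.0 without it in the receptor mutant, and 55.3 with and 143.2 without it in N2. All 3 treated arrays lay below all 3 untreated arrays. By limma with Benjamini-Hochberg adjustment, ugt-63 fell by 1.37 ± 0.15 on the log2 scale (SE, adjusted p = 0.00104), lower in 3 of 3 strains.

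The ugt-6 signal was 21.2 with and 39.9 without octopamine in daf-16, 20.2 with and 57.4 without it in the receptor mutant, and 28.6 with and 67.7 without it in N2. The treated and untreated arrays did not overlap. It fell by 1.28 ± 0.14 (log2, SE, limma adjusted p = 0.000927), lower in 3 of 3 strains. Its probe set carries the suffix _s, which marks probes matching more than 1 transcript, so the change may not be that of ugt-6 alone.

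The gene ugt-43 varied most between strains among those that fell. Its signal was 43.6 with and 65.2 without octopamine in daf-16, 16.7 with and 70.6 without it in the receptor mutant, and 40.4 with and 93.3 without it in N2. The treated arrays were again all below the untreated ones, with the treated receptor mutant near the 15.5 of the filter. The log2 ratios were -0.62 in daf-16, -2.13 in the receptor mutant and -1.30 in N2, and the model gave a change of -1.35 ± 0.24 (SE, limma adjusted p = 0.00762). The difference between strains has no test, since each ratio rests on 2 arrays. Its neighbour ugt-44 had the brightest probe set of the family, with signals of 405.7 with and 576.6 without octopamine in daf-16, 426.4 with and 668.9 without it in the receptor mutant, and 444.5 with and 522.8 without it in N2. It fell by 0.52 ± 0.09 (log2, SE, limma adjusted p = 0.00746), lower in 3 of 3 strains without overlap between treatments.

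**Figure D1:**
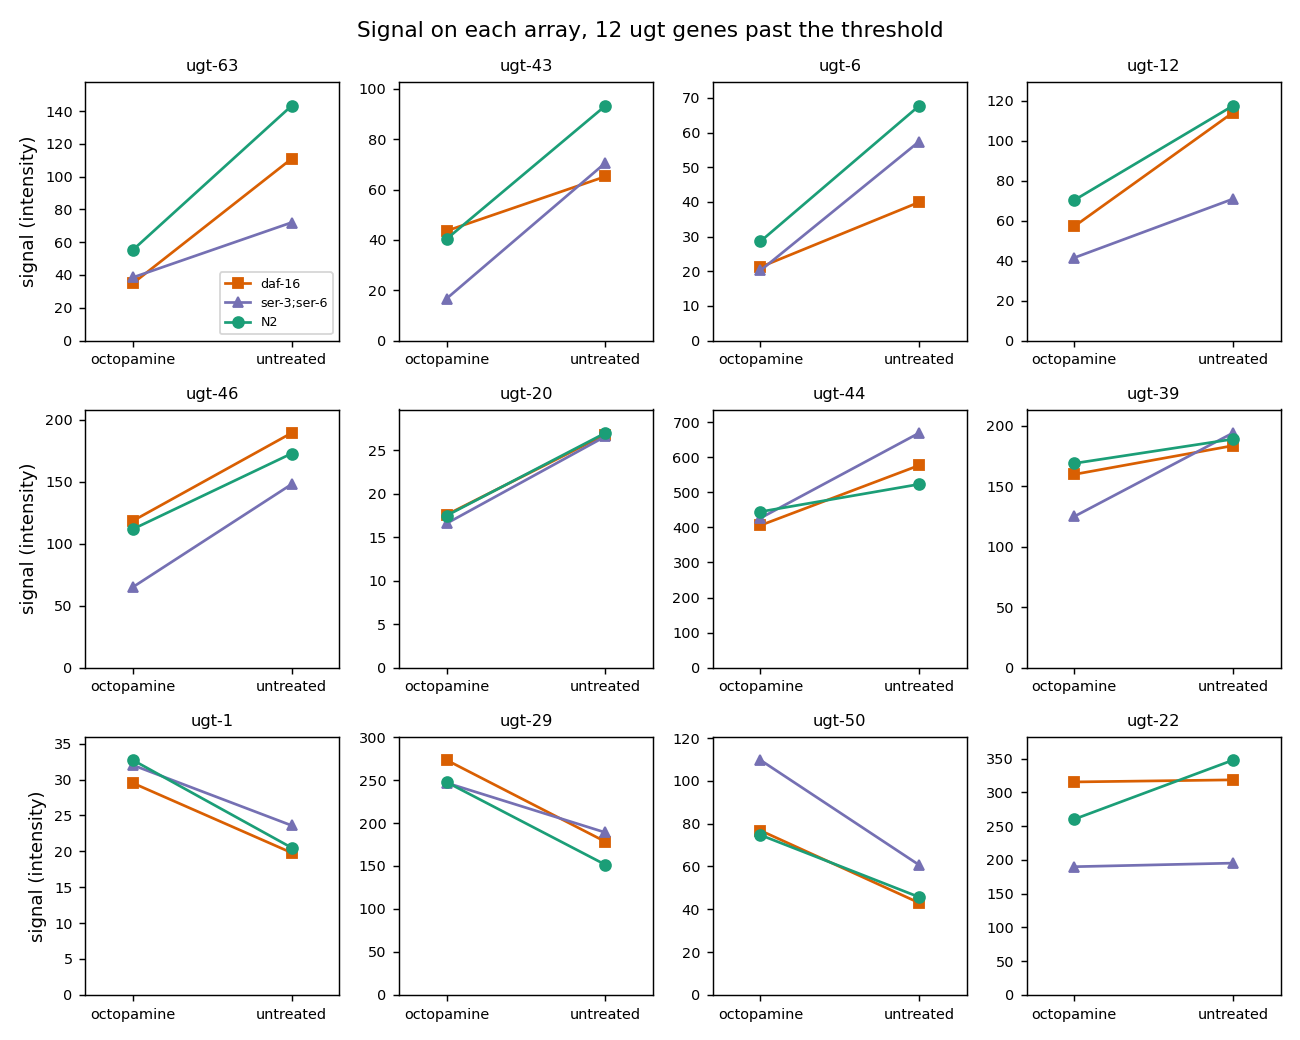
Deposited signal (linear intensity, axis from 0) of the 12 ugt genes past the threshold in any comparison, with 1 point per array and a line joining the octopamine and untreated arrays of a strain. The line is lower on the octopamine side in 3 of 3 strains for the 8 genes that fell, and higher there for ugt-1, ugt-29 and ugt-50, while ugt-22 is lower in the receptor mutant than in N2 on both sides.

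Signals of ugt-12 were 57.1 with and 113.99 without octopamine in daf-16, 41.4 with and 70.8 without it in the receptor mutant, and 70.2 with and 117.4 without it in N2. Within each strain the treated array was the lower one, and across strains the untreated receptor mutant, at 70.8, was close to treated N2. Its change was -0.90 ± 0.11 (log2, SE, limma adjusted p = 0.00169). For ugt-46 the signal was 118.6 with and 189.5 without octopamine in daf-16, 65.1 with and 148.1 without it in the receptor mutant, and 111.9 with and 172.9 without it in N2. The change of ugt-46 was -0.89 ± 0.13 (log2, SE, limma adjusted p = 0.00331), with no overlap between treated and untreated arrays. The second ugt-46 probe set gave ratios of -0.88 in daf-16, -1.06 in the receptor mutant and -1.03 in N2, against -0.71, -1.23 and -0.72 for the first in the same order. Both ugt-46 probe sets and that of ugt-12 carry the _s suffix.

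The change of ugt-20 was alike in the 3 strains. Its dim signal was 17.6 with and 26.8 without octopamine in daf-16, 16.6 with and 26.6 without it in the receptor mutant, and 17.5 with and 27 without it in N2. It fell by 0.70 ± 0.11 (log2, SE, limma adjusted p = 0.00387). The gene ugt-39 was the one nearest to the threshold, at -0.39 ± 0.12 (log2, SE, limma adjusted p = 0.0462), with ratios of -0.24 in daf-16, -0.68 in the receptor mutant and -0.25 in N2. Its signal was 159.7 with and 183.4 without octopamine in daf-16, 124.9 with and 193.9 without it in the receptor mutant, and 168.8 with and 188.8 without it in N2. The ugt-39 call was lost with the values as deposited (-0.33, limma adjusted p = 0.0836), with quantile normalization (-0.29, limma adjusted p = 0.119), without the receptor mutant's arrays (-0.24, limma adjusted p = 0.0952) and without the N2 arrays (-0.46, limma adjusted p = 0.0895). It was also lost with log2(intensity + 16), with no filter and with no mean-variance trend, at limma adjusted p-values of 0.0558, 0.0553 and 0.0588.

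Of the genes that rose, ugt-50 had the largest change. Its signal was 76.8 with and 43 without octopamine in daf-16, 109.7 with and 60.7 without it in the receptor mutant, and 74.7 with and 45.7 without it in N2. Every treated array was above every untreated one, and the change was 0.74 ± 0.11 (log2, SE, limma adjusted p = 0.00363). The 3 probe sets of ugt-50 differed in size: the one without the _s suffix had ratios of 0.64 in daf-16, 0.16 in the receptor mutant and 0.32 in N2. The third had ratios of 0.18 in daf-16, 0.59 in the receptor mutant and 0.15 in N2. The mean of the 3 gave a change of 0.47 (limma adjusted p = 0.0164). With the probe set without the suffix alone, the change of 0.38 did not pass (limma adjusted p = 0.0734).

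Signals of ugt-29 were 273.2 with and 178.3 without octopamine in daf-16, 246.7 with and 189.0 without it in the receptor mutant, and 247.5 with and 151.5 without it in N2. The treated and untreated arrays did not overlap. It rose by 0.51 ± 0.10 (log2, SE, limma adjusted p = 0.00999), higher in 3 of 3 strains, and its probe set carries the _s suffix. The dim probe set of ugt-1 had signals of 29.5 with and 19.8 without octopamine in daf-16, 32.0 with and 23.6 without it in the receptor mutant, and 32.7 with and 20.5 without it in N2. It rose by 0.50 ± 0.11 (log2, SE, limma adjusted p = 0.0155), higher in 3 of 3 strains. Without the N2 arrays neither passed, at 0.46 for ugt-29 (limma adjusted p = 0.0622) and 0.46 for ugt-1 (limma adjusted p = 0.0885).

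**Figure D2:**
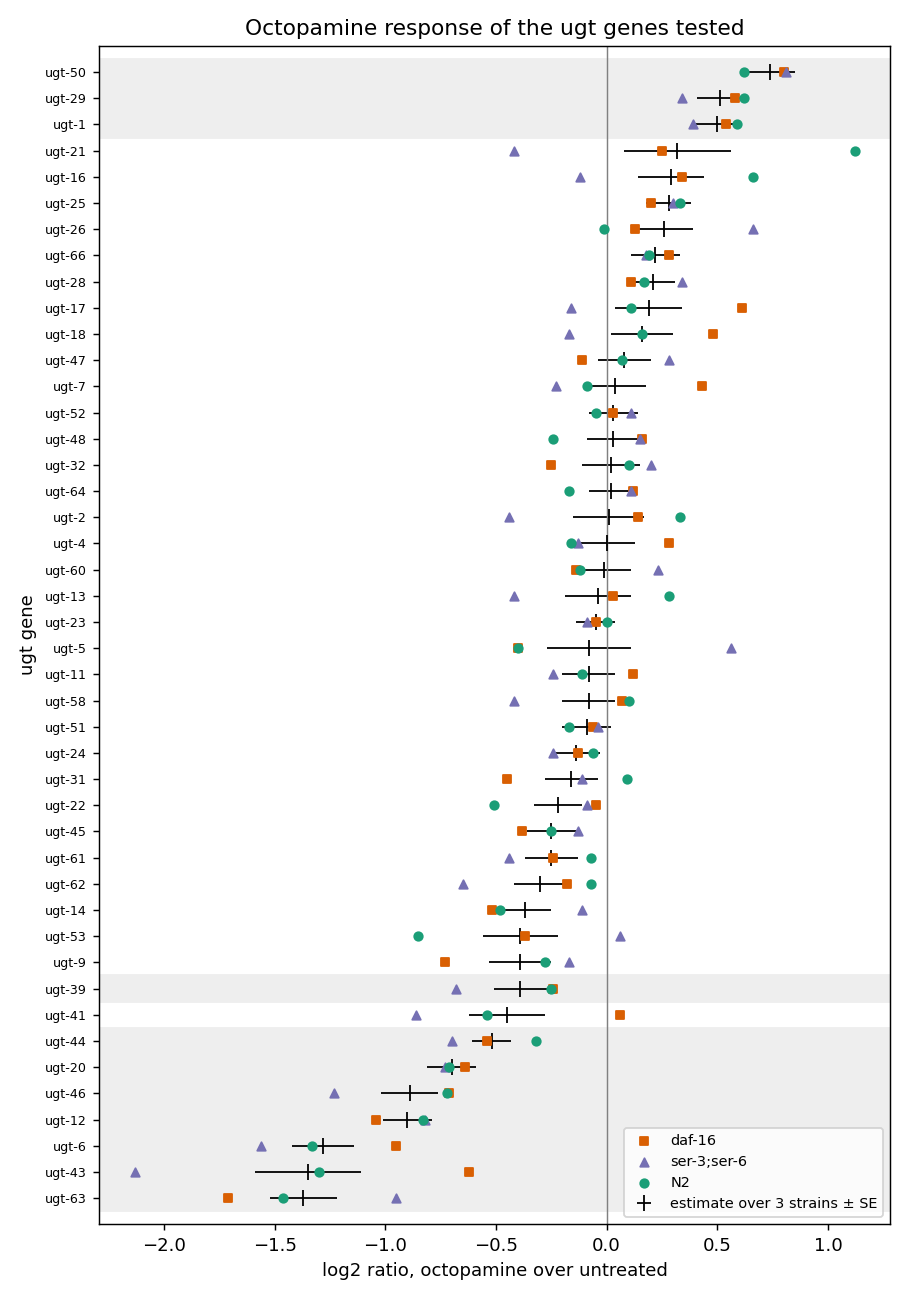
Log2 ratios of octopamine over untreated for the 44 ugt genes tested, 1 symbol per strain, with the estimate over the 3 strains and its SE as a cross with a horizontal bar. Grey bands mark the 11 genes past the threshold, and the estimates run from -1.37 for ugt-63 to 0.74 for ugt-50.

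The 33 tested members that did not pass had estimates between -0.45 and 0.32, with SEs of 0.09 to 0.24. Of these, 3 had a positive ratio in each strain, namely ugt-25, ugt-66 and ugt-28. Another 8 had a negative ratio in each strain, and 22 had ratios of both signs. The gene ugt-41 had the lowest of these estimates, -0.45 ± 0.17 (log2, SE, limma adjusted p = 0.0942), with ratios of 0.06 in daf-16, -0.86 in the receptor mutant and -0.54 in N2. Without the daf-16 arrays it passed, at -0.70 (limma adjusted p = 0.00315), in a fit where 1068 of 10251 genes fell. That fit leaves out the strain with a positive ugt-41 ratio, so it is no further support for a change. The bright members ugt-62, ugt-23 and ugt-26, with signals of 150.9 to 308.1, did not pass either. The ratios of ugt-62 were -0.18 in daf-16, -0.65 in the receptor mutant and -0.07 in N2. For ugt-26 they were 0.13 in daf-16, 0.66 in the receptor mutant and -0.01 in N2. The gene ugt-23 stayed between -0.09 and 0.00 in the 3 strains.

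The strain with the most different profile depended on the gene. In N2, ugt-21 had the highest octopamine ratio of the family, 1.12, from signals of 67.6 with and 29.3 without octopamine. Its signals were 28.4 with and 23.2 without octopamine in daf-16, and 27.4 with and 35.5 without it in the receptor mutant, so the treated N2 array stood apart from the other 5. The ugt-21 change over strains was 0.32 ± 0.24 (log2, SE, limma adjusted p = 0.380) and did not pass. Without the receptor mutant's arrays the estimate was 0.69 and passed (limma adjusted p = 0.0256), and without the N2 arrays it was -0.08. The fit that passed leaves out the strain with a negative ugt-21 ratio, so it is no further support for a change. The octopamine ratio in N2 minus that in daf-16 was 0.87, and N2 minus the receptor mutant was 1.54. Both differences use the same treated N2 array. With log2(intensity + 16) the ugt-21 ratio in N2 was under 2-fold.

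The receptor mutant differed in direction from the other strains for ugt-5, with ratios of -0.40 in daf-16, 0.56 in the receptor mutant and -0.40 in N2. For ugt-16 the ratios were 0.34 in daf-16, -0.12 in the receptor mutant and 0.66 in N2. For ugt-53 they were -0.37 in daf-16, 0.06 in the receptor mutant and -0.85 in N2. These differences between strains were not tested, and 0 members were past 1.5-fold upward in one strain and downward in another. At least 2-fold lower with octopamine were ugt-63 and ugt-12 in daf-16, which makes 2 members, against 1.15% of all genes. In the receptor mutant there were 3, ugt-43, ugt-6 and ugt-46, against 2.18% of all genes, and in N2 also 3, ugt-63, ugt-6 and ugt-43, against 1.45%. At least 2-fold higher was ugt-21 in N2, against 1.2% of all genes, and in the mutants 0 members were, against 0.771% of all genes for daf-16 and 0.985% for the receptor mutant.

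No difference between daf-16 and N2 passed the threshold in the family. By limma with Benjamini-Hochberg adjustment, 0 of 44 members differed between daf-16 and N2 over both treatments, against 0.039% of all genes that were higher and 0.205% that were lower (0.244% in either direction), and 7 had an unadjusted p under 0.05. Of these 4 were higher and 3 lower, against 2.13% of all genes higher and 4.11% lower at that p. The estimates ran from -0.82 for ugt-21 to 0.66 for ugt-48. For ugt-48 the signal in daf-16 was 113.6 with and 98.8 without octopamine, against 62.7 with and 69.4 without it in N2. Both daf-16 arrays were above both N2 arrays, and the difference of 0.66 ± 0.15 (log2, SE) had a limma adjusted p of 0.209. It passed without the receptor mutant's arrays (limma adjusted p = 0.0437), in a fit where 0.302% of all genes were higher. That fit holds fewer arrays, so it is no further support for a difference. The second ugt-48 probe set had ratios to N2 of 0.50 with and 0.17 without octopamine, against 0.86 with and 0.46 without it for the first.

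Further from 0 than 0.5 in the same daf-16 comparison were ugt-6, ugt-63 and ugt-31. The ratio of daf-16 to N2 for ugt-6 was -0.43 with and -0.81 without octopamine. For ugt-63 it was -0.66 with and -0.42 without octopamine. For ugt-31 it was 0.25 with and 0.79 without octopamine, from signals in daf-16 of 164.6 with and 219.2 without it, against 139.1 with and 123.1 without it in N2. At least 2-fold lower than in N2 was ugt-21 with octopamine, at -1.25, against 0.312% of all genes, and 0 members were so without it, against 0.341%. At least 2-fold higher were 0 members in either treatment, against 0.078% of all genes with and 0.0488% without octopamine.

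In the receptor mutant 2 members, ugt-12 and ugt-22, were lower than in N2 over both treatments, or 4.55% of those tested, against 2.2% of all genes. By the same limma test 0 were higher, against 0.4% of all genes (2.6% in either direction). At an unadjusted limma p under 0.05, 4 of the 44 members were higher and 12 of the 44 lower, against 5.55% and 16% of all genes. For ugt-22 the signal in the receptor mutant was 189.8 with and 195.1 without octopamine, against 260.1 with and 347.6 without it in N2. Both receptor mutant arrays lay below both N2 arrays, and below the daf-16 arrays at 315.3 with and 318.4 without octopamine. The difference from N2 was -0.70 ± 0.14 (log2, SE, limma adjusted p = 0.0418). It lost the call with quantile normalization (-0.59, limma adjusted p = 0.0684) and without the mean-variance trend (limma adjusted p = 0.0739). A further probe set, assigned to ugt-22 together with Y43D4A.2, was not used. Its signals were 111.7 with and 128.7 without octopamine in the receptor mutant, against 158.8 with and 230.4 without it in N2. In daf-16 they were 156.4 with and 213.8 without octopamine, so this probe set was lower with octopamine in each strain.

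For ugt-12, whose signals stand above, the difference from N2 was -0.80 ± 0.14 (log2, SE, limma adjusted p = 0.0319), with ratios of -0.80 with and -0.81 without octopamine. Octopamine and the receptor genotype were thus both accompanied by lower ugt-12, with octopamine ratios of -0.82 in the receptor mutant and -0.83 in N2. The median difference from N2 was -0.23 for the 44 members and -0.06 for all genes, with 30 members below 0 and 14 above. Below 0 were thus 68.2% of the members, against 61.2% of all genes. At least 2-fold lower than in N2 were ugt-21 and ugt-43 with octopamine, at -1.34 and -1.31, against 1.3% of all genes. Without octopamine these were ugt-53 and ugt-63, at -1.25 and -1.07, against 0.673% of all genes. At least 2-fold higher were 0 members in either treatment, against 0.146% of all genes with and 0.215% without octopamine. Signals of ugt-53 were 16.9 with and 15.7 without octopamine in the receptor mutant, against 20.8 with and 35.3 without it in N2, and its difference of -0.79 ± 0.20 (log2, SE, limma adjusted p = 0.0818) did not pass. Nor did ugt-63 at -0.82 ± 0.19 (limma adjusted p = 0.0619) or ugt-43 at -0.90 ± 0.29 (limma adjusted p = 0.137). Without the daf-16 arrays 7 of the 44 members were lower, against 5.34% of all genes in that fit. The members added were ugt-43, ugt-46, ugt-53, ugt-62 and ugt-63. The SE of ugt-43 was 0.19 there and 0.29 with all 6 arrays, although its ratios of -1.31 with and -0.48 without octopamine lay far apart. With fewer arrays, that fit is no further support for these differences. Both mutant comparisons use the same N2 arrays.

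**Figure D3:**
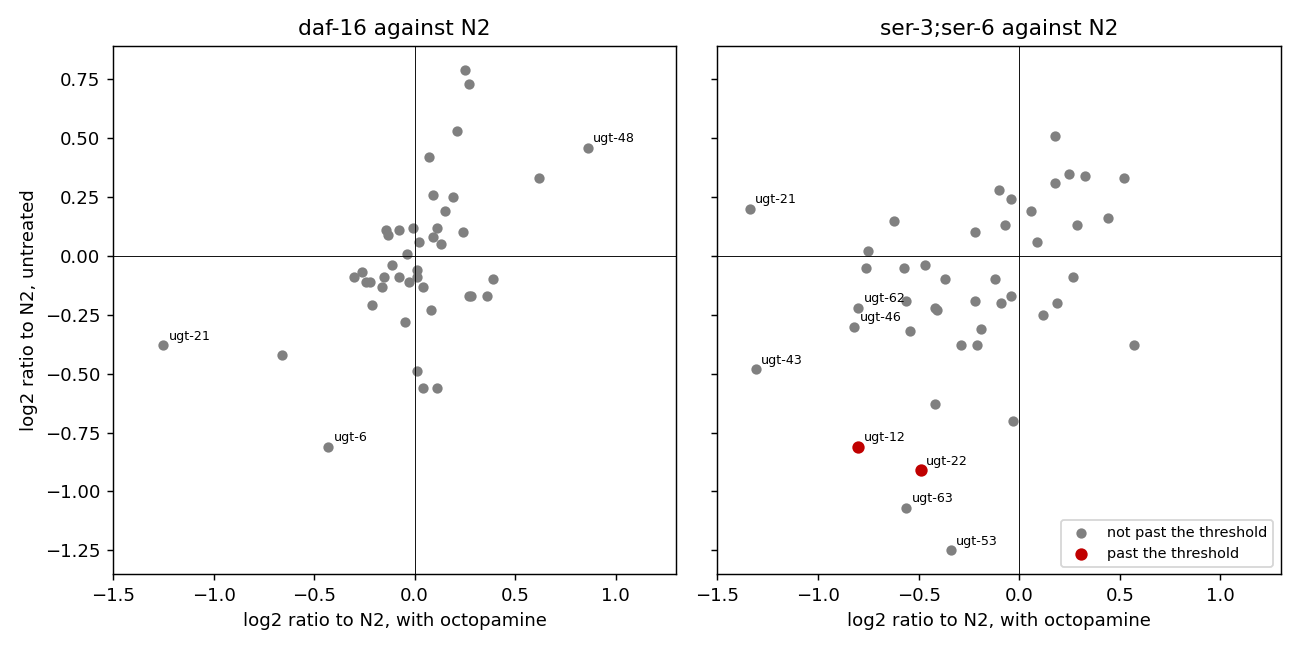
Log2 ratio of each mutant to N2 with octopamine (horizontal axis) and untreated (vertical axis), 1 point per ugt gene tested, daf-16 on the left and the receptor mutant on the right. In the receptor mutant ugt-12 and ugt-22, in red, are past the threshold, and in daf-16 0 of 44 points are.

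In the gene table of assembly WBcel235, 40 of the 64 members lie on chromosome V, 11 on IV, 5 on I, 4 on X, 3 on III and 1 on II. That table served only for names and gene order. Runs of ugt genes with at most 1 other protein-coding gene between neighbours numbered 12 and held 36 members, of which 22 were tested, while 28 members lay alone, of which 22 were tested. In runs 1 member rose and 6 fell with octopamine, and among those lying alone 2 rose and 2 fell, against 7.35% of all genes that rose and 14.7% that fell. The difference between the places was not tested. Neighbours often had different values. In the longest run, of 8 genes on chromosome V, ugt-12 fell by 0.90, while ugt-11, ugt-9, ugt-14 and ugt-13 had changes of -0.08, -0.39, -0.37 and -0.04 and did not pass. In another run ugt-6 fell by 1.28, while ugt-5 and ugt-4 had changes of -0.08 and 0.00. Next to ugt-1, which rose by 0.50, ugt-2 had a change of 0.01. On chromosome IV both ugt-43 and ugt-44 fell. On chromosome I ugt-26, ugt-28 and ugt-25 had changes of 0.26, 0.21 and 0.28, and 0 of them passed.

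**Figure D4:**
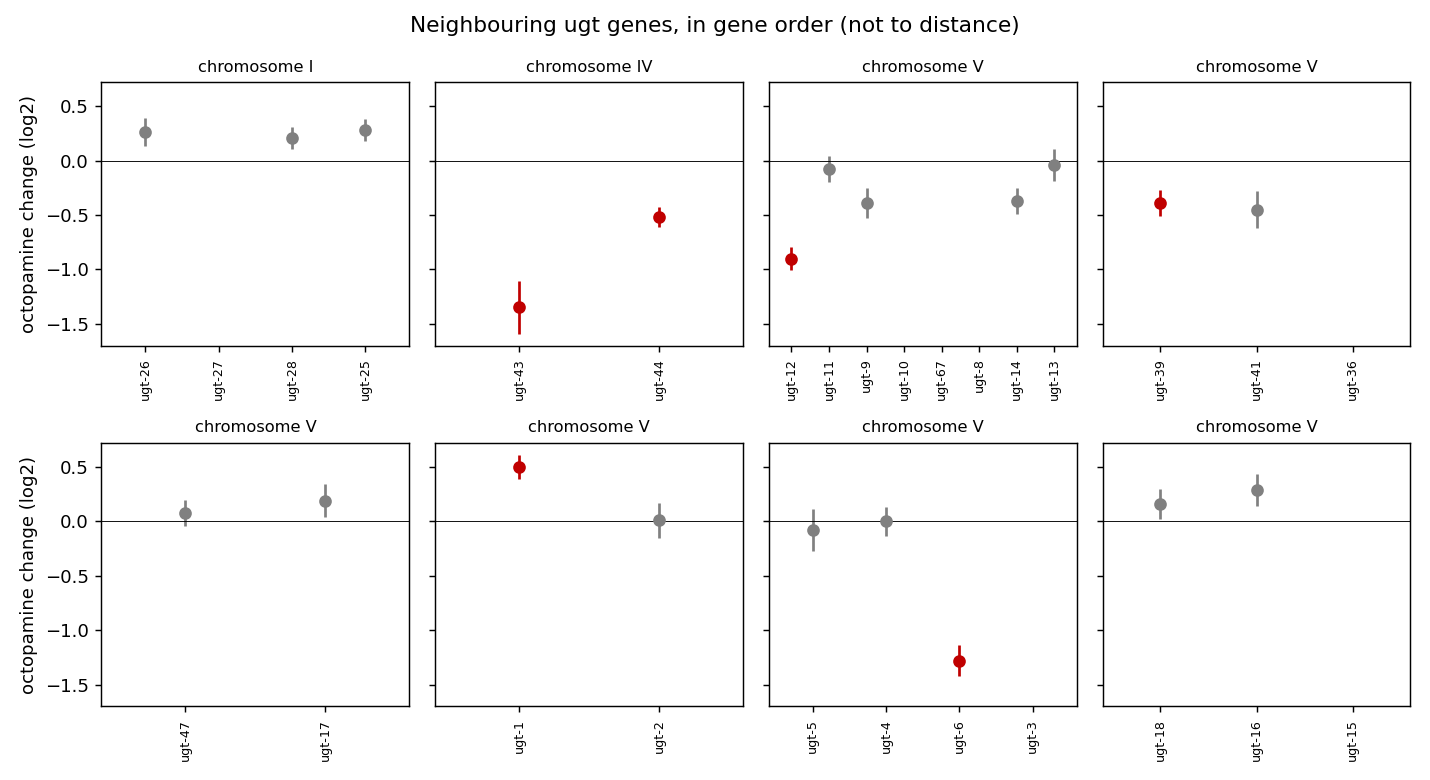
Octopamine change over 3 strains (log2, bars show the SE) for the tested members of the 8 runs of neighbouring ugt genes that hold at least 2 of them, in gene order and not to distance. Red points are past the threshold, and a gene with no point did not pass the filter on low signal.

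The 20 members under the filter had signals between 4.7 and 19.4 and were not tested. Of these, 17 had no array at or above the filter's signal of 15.5. The exceptions were ugt-8, ugt-33 and ugt-54. The ugt-33 signal was 17.8 with and 13.2 without octopamine in daf-16, 18.3 with and 14.4 without it in the receptor mutant, and 18.8 with and 11.4 without it in N2. The treated ugt-33 arrays were all above the untreated ones. The dimmest 5 probe sets were those of ugt-38, ugt-42, ugt-27, ugt-59 and ugt-30, with signals of 4.7 to 7.9.

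Genes of UDP-sugar supply and use, of other detoxification families and of their regulators were read in the same model. The counts stand against 7.35% of all genes tested that rose and 14.7% that fell with octopamine. Of 9 tested genes of UDP-sugar supply and use, 1 rose and 2 fell with octopamine, with a median change of -0.19. The UDP-glucuronic acid decarboxylase sqv-1 fell by 0.50 ± 0.07 (log2, SE, limma adjusted p = 0.00377) and the Golgi UDP-sugar transporter sqv-7 by 0.32 ± 0.08 (limma adjusted p = 0.0268). The third was D1005.2, which rose by 0.51 ± 0.16 (limma adjusted p = 0.0499). The UDP-glucose dehydrogenase sqv-4, which makes UDP-glucuronic acid, had a change of -0.19 ± 0.07 and did not pass (limma adjusted p = 0.0785). Among 35 tested cytochrome P450 genes of the cyp family 7 rose and 5 fell, and among 27 tested glutathione S-transferases of the gst family 4 rose and 3 fell. The carboxylesterase-like cest family had 3 rising and 2 falling of 19, the dhs dehydrogenases 3 and 1 of 26, the pgp transporters 1 and 1 of 8, and the mrp transporters 1 and 0 of 8. The median changes of these families lay between -0.10 and 0.09. Of 21 tested regulators of detoxification genes 3 rose and 0 fell: the FoxA factor pha-4 at 0.48 ± 0.11 (limma adjusted p = 0.0201), the zinc finger factor pqm-1 at 0.37 ± 0.11 (limma adjusted p = 0.0482) and the bZIP factor zip-2 at 0.54 ± 0.08 (limma adjusted p = 0.00363). The SKN-1 and nuclear hormone receptor genes of that list did not pass. The sulfotransferase ssu-1 lay under the filter, with signals from 9 to 11.

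Cell type markers were read beside these counts, against the same 7.35% of all genes that rose and 14.7% that fell with octopamine. Of 8 tested intestine markers 2 rose and 1 fell with octopamine, and their summed signal was 8060 with and 7814 without it in daf-16, 7605 with and 8135 without it in the receptor mutant, and 6988 with and 6443 without it in N2. Such sums are set mostly by the brightest probe sets and do not measure the amount of a cell type. Of 6 tested hypodermis markers 1 rose and 2 fell. Excretory system markers had 1 rising of 6, through the aquaporin aqp-8, and neuronal markers 1 rising of 8. Body wall muscle markers had 2 rising of 6, pharynx markers 1 of 4, glia markers 0 of 2, and germline and oocyte markers 0 of 8 with 0 falling. Of 4 tested embryo markers 1 rose and 1 fell, and of 24 sperm markers 1 fell. In the receptor mutant against N2, 3 of 6 muscle markers and 6 of 24 sperm markers were lower, as was 1 of 6 hypodermis markers, while 0 of 8 intestine markers passed. In that comparison 2.2% of all genes were lower and 0.4% higher. The summed muscle signal was 1608 with and 1495 without octopamine in the receptor mutant, against 2543 with and 1993 without it in N2. The summed signal of all 27 sperm markers on the array, tested or not, was 1263 with and 1398 without octopamine in the receptor mutant. In N2 it was 2103 with and 1899 without it. In daf-16 against N2, 2 of 24 sperm markers were lower, where 0.205% of all genes were. The summed sperm signal of daf-16 was 1101 with and 1434 without octopamine. The median difference of the 24 tested sperm markers from N2 was -0.66 for daf-16, against -0.63 for the receptor mutant. RNA quality was read from the ubiquitin control probes, whose 3' signal divided by the 5' signal was 5.74 to 6.23 with octopamine and 5.32 to 5.48 without it. The same ratio of the actin control was 2.0 with and 2.14 without octopamine in daf-16, 1.96 with and 1.69 without it in the receptor mutant, and 1.79 with and 2.03 without it in N2. That of the Gapdh control was 1.03 with and 1.24 without octopamine in daf-16, 1.09 with and 0.92 without it in the receptor mutant, and 1.05 with and 1.23 without it in N2, so these controls were lower with octopamine in daf-16 and N2 and higher in the receptor mutant. The part of these differences in the ugt results was not tested.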

How the data were processed

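The authors deposited a table of linear intensity for 6 arrays. For the summarisation, the normalisation and the build behind it, the sources used here give nothing. Of 22625 probe sets 77 controls were left out. A platform annotation gave 1 gene for 20766 probe sets and several for 887, and 895 were unnamed. Of the probe sets, 20701 were found in the gene list of WBcel235, with 0 changes of symbol. No pseudocount was added before log2, and each array's median was subtracted, since the array medians as deposited spanned 0.127. Genes were kept when 2 to the power of their mean log2 signal was at least 15.5, the 40th percentile over probe sets, which left 10251. Strain and octopamine were the terms of an additive fit by limma 3.58.1 under R 4.3.3, with a mean-variance trend, 2 residual and 6.28 prior degrees of freedom, and Benjamini-Hochberg adjustment. The script was tested on simulated data with 200 of 10251 genes changed and no octopamine change that differed between strains. It called 40.8% of changes of 0.5 on the log2 scale and 97.8% of changes of 1. Of its calls, 4.53% were on unchanged genes. Other steps used Python 3.11.15 with pandas 2.3.3, and plots matplotlib 3.10.9. Members and lists were chosen with earlier results of these data known. Named genes were members past the threshold, at or past 2-fold in a ratio, brightest or dimmest, or with ratios in opposite directions. Other members were named as examples of neighbours or of strain differences, chosen after their values were seen. No sequence was read, because no table of sequences was used here.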

Additional observations from a re-analysis of the deposited data

How the results depend on the processing

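No paired analysis was possible by replicate number, because every group has a single array, numbered 1. Treated and untreated arrays are already compared within strains, since strain is a term of the model. The 3 genes that rose and 8 that fell with octopamine became 3 and 7 with the values as deposited, 4 and 7 with quantile normalization and 3 and 7 with log2(intensity + 16). Over all genes these scalings moved the split more, to 48.8% increases among the calls as deposited and 52.5% after quantile normalization, against 33.2% here. With the filter at the 60th percentile, which kept 22 members, 2 rose and 5 fell, against 555 and 1338 of 6785 genes. With only probe sets free of the _s or _x suffix, which kept 33 members, 1 rose and 5 fell, against 481 and 1047 of 7226 genes. Leaving out 1 strain's arrays in turn gave 1 to 5 rising and 7 to 11 falling: 1 rose without the N2 arrays and 5 without the receptor mutant's. In daf-16 against N2, the fit without the receptor mutant's arrays gave 1 higher member. In the receptor mutant against N2, 1 member was lower with quantile normalization, with probe sets free of a suffix and without the trend, and 7 without the daf-16 arrays. The mutant terms could not be fitted without N2. Among 2-fold counts, log2(intensity + 16) gave 0 higher in N2 with octopamine and 0 lower in daf-16 against N2 with octopamine. In both of these the member lost was ugt-21. It also gave 0 lower in the receptor mutant against N2 in either treatment, where ugt-21 was among those lost with octopamine. For octopamine in daf-16, 1 member was 2-fold lower with the values as deposited, quantile normalization, log2(intensity + 16) and probe sets free of a suffix. With the last of these, 1 was 2-fold lower in the receptor mutant. In the untreated receptor mutant against N2, 1 was 2-fold lower as deposited and with quantile normalization. The cause of these shifts was not tested. The fits with the stricter filter or without suffixed probe sets held fewer genes, and those without a strain fewer arrays. Signal near the filter limits ugt-20, ugt-1, ugt-53, treated ugt-6 and treated ugt-43.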
